A study of Mus musculus with 12 samples.

Results

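The genes described are 10 cytosolic sensors of RNA and DNA and their close partners and regulators, taken by symbol from the 57010 genes listed. They are Rigi, Ifih1, Dhx58, Mavs, Zbp1, Eif2ak2, Adar, Cgas, Trex1 and Samhd1. Of these, 9 passed the filter on low counts and were tested among 15425 genes, and Trex1 had 0 counts in every library. The RNA came from 12 libraries of mouse preosteoclasts, which are bone marrow cells on the way to becoming bone-resorbing osteoclasts. LSD1cKO mice carry a floxed gene for the histone demethylase LSD1 (Kdm1a) that is deleted by Cre from the LysM promoter, which is active in monocytes, macrophages and neutrophils, and LSD1WT mice were the controls. All mice were female, at 2 months of age in the labels and 3 months in the study's methods. Marrow was taken from the mandible of mice that had silk ligatures around their upper second molars, on both sides, for 7 days (ligature-induced periodontitis), from the femur of such mice, and from the femur of mice without a ligature. Every culture received M-CSF and RANKL for 2 days. Each genotype has 2 libraries in each of these 3 cultures, and the 12 libraries come from 9 mice, since mandible and femur were both taken from 1 LSD1WT and 2 LSD1cKO ligated mice.

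Cells watch their cytosol for nucleic acids that should not be there. RIG-I (Rigi) and MDA5 (Ifih1) bind double-stranded RNA and signal through the mitochondrial adaptor MAVS, while cGAS binds DNA and makes the messenger cGAMP, which activates STING. Both routes lead to type I interferon, and interferon in turn raises the transcription of many of the sensors, so that their levels usually follow those of other interferon-stimulated genes. Interferon-beta is also known to restrain osteoclast formation.

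Total counts per library ran from 21375805 to 32526751, with a median of 26364586. Levels are in CPM, a gene's counts scaled to the TMM-adjusted library total. Kdm1a itself lay between 61.2 and 71.3 CPM in the LSD1WT libraries and between 15.6 and 24.3 CPM in the LSD1cKO libraries, without overlap. In the femur, the second LSD1WT library stood apart in both the ligated and the unligated culture. Its 10 osteoclast markers (Acp5, Ctsk, Nfatc1 and others) summed to 168 and 238 CPM, against 11545 to 40907 CPM in the other 10 libraries. Its 7 macrophage markers (Adgre1, Csf1r, C1qa and others) summed to 11531 and 8704 CPM, against 1596 to 4485 CPM elsewhere. The 2 mandible LSD1WT libraries were unusually alike, with a median squared difference 1.57 times that of sampling alone, against 6.33 to 153 times in the other conditions. One of them, replicate 3, is mandible by its title and femur by its library name, and was kept as mandible. The labels name a mouse for each library, and p values measure the spread between these libraries. Markers of lymphoid, erythroid, stromal and endothelial cells were low, at no more than 45.6 summed CPM for any list in any library, and those of neutrophils (88.3 to 301 CPM) and plasmacytoid dendritic cells (59.2 to 354 CPM) were modest. Some of these sums moved with genotype. The 3 endothelial markers were higher in LSD1cKO without overlap in every culture, at 2.82 and 2.75 against 3.50 and 6.03 CPM in the mandible, 7.28 and 5.39 against 42.9 and 45.6 CPM in the ligated femur, and 7.60 and 7.95 against 33.8 and 17.6 CPM in the unligated femur. In the mandible, the 5 stromal markers summed to 39.8 and 40.7 CPM in LSD1WT and to 8.21 and 3.12 CPM in LSD1cKO, and the osteoclast markers to 26214 and 26090.5 against 14650 and 14779 CPM. Also without overlap in the mandible, the macrophage and the T and NK cell sums were lower in LSD1cKO. The plasmacytoid dendritic cell and B cell sums were higher there. The part of these cells in the genotype differences given here was not tested.

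Loss of LSD1 went with higher levels of several sensors. Over the 3 cultures, Rigi, Ifih1, Zbp1 and Samhd1 rose in LSD1cKO preosteoclasts, by 3.67-fold, 2.82-fold, 5.93-fold and 1.68-fold. These are 4 of the 9 tested members, and 3% of all genes tested were called higher in the same comparison. Samhd1 was not called when replicate number or mouse was taken into account. Dhx58 at 2.90-fold just missed the threshold, Adar, Cgas and Eif2ak2 had smaller positive values, and Mavs had a negative one. The median log2 fold change was 0.75 over the 9 members and -0.06 over all genes tested. Tests used the quasi-likelihood method of edgeR with terms for culture and genotype, and p values were adjusted by Benjamini-Hochberg over all genes and held to 0.05. Since the RNA is from bulk cultures, a change in the number of cells that express a gene and a change in RNA per cell cannot be told apart. Without the second femur LSD1WT library of either culture, which leaves 1 LSD1WT library for each femur culture, 8 of the 9 members were called, all but Mavs, where 24.2% of genes were called, and with the mandible LSD1WT replicate 3 placed in the femur group only Rigi was called (adjusted p = 0.0405).

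**Figure D1:**
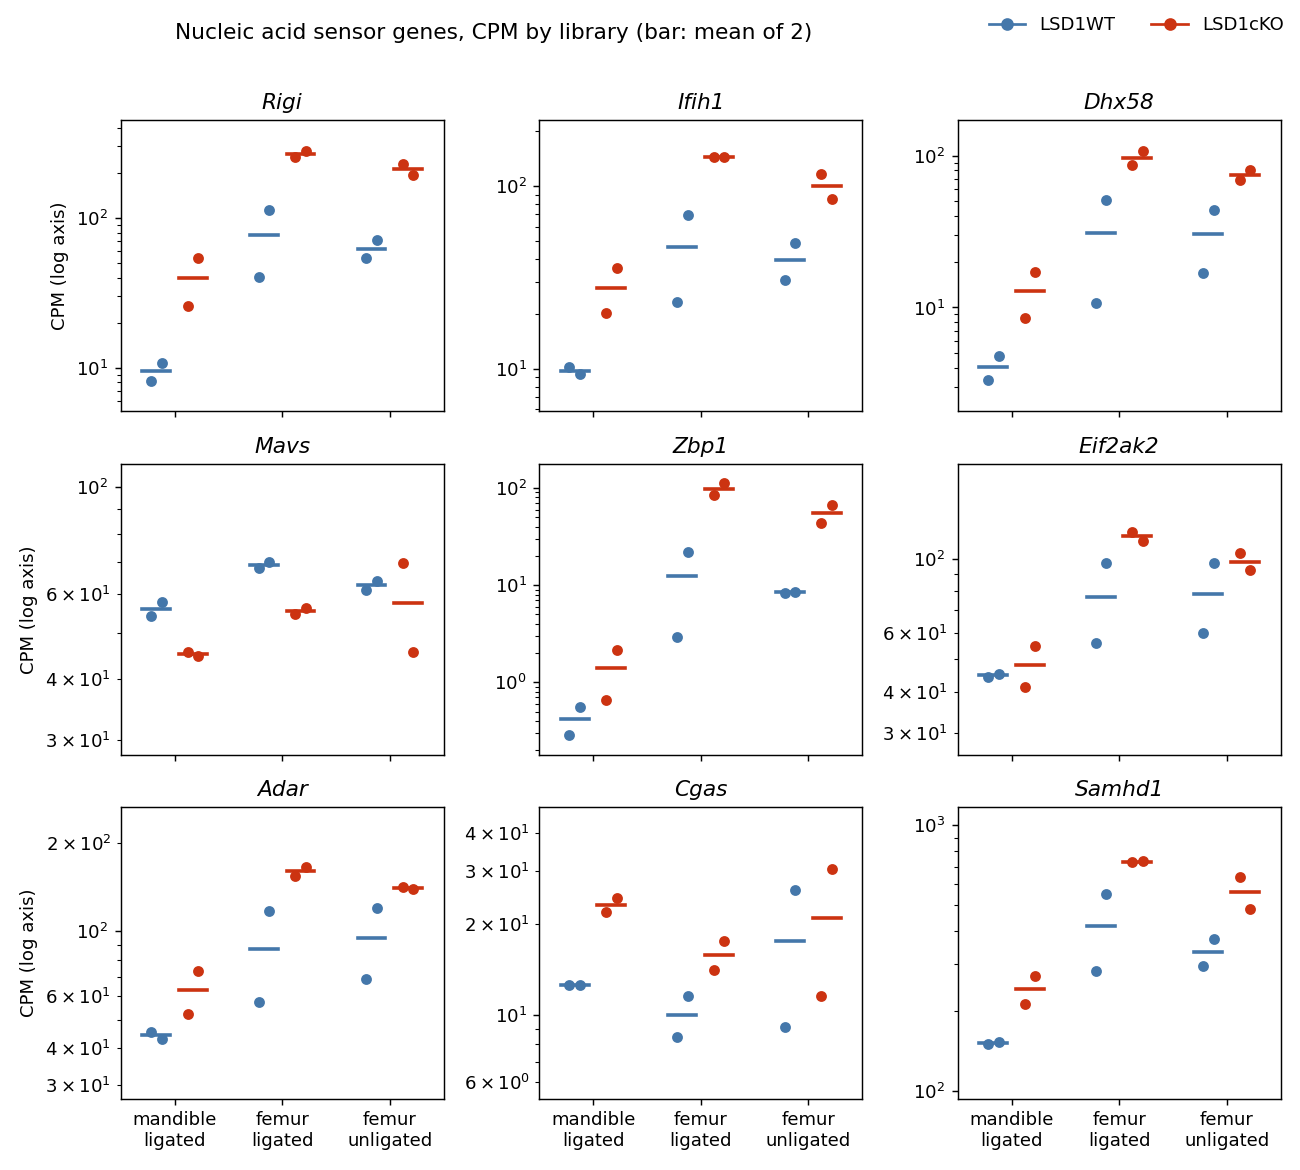
CPM of the 9 tested genes in each library, on log axes that differ between panels, by culture and genotype (blue LSD1WT, red LSD1cKO), with bars for the mean of 2 libraries. In each culture both LSD1cKO points lie above both LSD1WT points for Rigi, Ifih1, Dhx58, Zbp1, Adar and Samhd1, and within each genotype the mandible points are the lowest for these genes.

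Rigi (ENSMUSG00000040296) encodes RIG-I, a helicase that recognises RNA with a 5' triphosphate. Mandible libraries held 8.20 and 10.8 CPM for LSD1WT against 25.9 and 54.0 CPM for LSD1cKO. The ligated femur gave 40.1 and 114 CPM in LSD1WT and 253 and 282 CPM in LSD1cKO, and the unligated femur 54.1 and 70.9 against 230 and 194 CPM. The genotypes did not overlap in any culture, although the ligated femur LSD1WT pair differed by 2.83 times. The log2 fold change over the 3 cultures was 1.88 (SE 0.26, adjusted p = 0.00461). It stayed called with each of the 12 libraries left out in turn, at adjusted p values up to 0.0160.

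Ifih1 (ENSMUSG00000026896) encodes MDA5, the sensor of long double-stranded RNA. Its LSD1WT libraries held 10.2 and 9.36 CPM in the mandible, 23.2 and 69.3 CPM in the femur with ligature, and 30.8 and 48.6 CPM in the femur without. Its LSD1cKO libraries held 20.1 and 35.6, 144 and 144, and 116 and 85.0 CPM in the same order. Again the lowest LSD1cKO library lay above the highest LSD1WT library of its culture. The log2 fold change was 1.50 (SE 0.26, adjusted p = 0.0117), called in all 12 fits that left out a library.

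Dhx58 (ENSMUSG00000017830) encodes LGP2, the member of the family that lacks the signalling domains and tunes the other helicases. Mandible libraries held 3.31 and 4.81 CPM for LSD1WT against 8.52 and 17.1 CPM for LSD1cKO. Femur values were 10.8 and 50.9 against 86.4 and 107 CPM with ligature, and 17.0 and 43.6 against 68.7 and 80.1 CPM without. Groups were separate in every culture, and the wide LSD1WT pairs in the femur left the log2 fold change of 1.53 (SE 0.37) at an adjusted p of 0.0514. Leaving out 1 library took it under 0.05 in 3 of 12 fits.

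For the 8 members with a RefSeq promoter entry, the 300 bases from 250 before to 50 after each annotated start were searched on both strands for the interferon-stimulated response element, written GAAANNGAAA. Rigi (listed as Ddx58), Ifih1 and Eif2ak2 held it, 3 of 8 genes, and so did 1079 of all 27025 genes with a window (3.99%). Dhx58 and Zbp1 had no entry. The matches are printed 5' to 3' on the gene's strand with the element in capitals, to show its place just downstream of the start. Their shared letters follow from the search. The build is GRCm38.p6, and all 3 genes are on the minus strand.
Rigi, chr4:40239804-40239833: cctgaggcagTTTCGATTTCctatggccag
Ifih1, chr2:62646206-62646233: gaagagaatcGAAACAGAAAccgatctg
Eif2ak2, chr17:78882535-78882564: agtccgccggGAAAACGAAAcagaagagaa
In Rigi the element is read on the opposite strand, at bases 3 to 12 after the start. In Ifih1 it spans bases 33 to 42 and in Eif2ak2 bases 19 to 28. A second motif, the interferon-gamma-activated site TTCNNNGAA, which reads the same on both strands, was found in Adar, Eif2ak2 and Samhd1 3 of 8 genes, and in 9.55% of all genes. A match describes the letters only, and Rigi and Ifih1 were called over the 3 cultures while Eif2ak2, with the same element, was not.

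Mavs (ENSMUSG00000037523), the adaptor on which RIG-I and MDA5 converge, did not follow its receptors. It was at 54.0 and 57.7 CPM in mandible LSD1WT and 45.6 and 44.6 CPM in mandible LSD1cKO. The ligated femur gave 68.0 and 69.9 against 54.5 and 56.3 CPM, and the unligated femur 61.4 and 64.0 against 69.7 and 45.6 CPM. LSD1cKO was thus lower without overlap in both ligated cultures and on either side of LSD1WT in the unligated one. The log2 fold change over the 3 cultures was -0.25 (SE 0.11, unadjusted p = 0.0452, adjusted p = 0.296), and no alternative fit called it there.

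Zbp1 (ENSMUSG00000027514) encodes a sensor of Z-form nucleic acids that can start necroptosis. It had the widest range of the members, from 0.286 and 0.550 CPM in mandible LSD1WT (7 and 15 counts) to 84.8 and 111 CPM in ligated femur LSD1cKO. Mandible LSD1cKO held 0.653 and 2.13 CPM (19 and 69 counts). In ligated femur LSD1WT it was at 2.94 and 21.8 CPM, in unligated femur LSD1WT at 8.29 and 8.57 CPM, and in unligated femur LSD1cKO at 43.1 and 67.5 CPM. No culture showed overlap between the genotypes, and the log2 fold change was 2.57 (SE 0.49, adjusted p = 0.0188). Without mandible LSD1cKO replicate 2 its adjusted p was 0.0528, the only fit with 1 library left out in which it was not called.

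Eif2ak2 (ENSMUSG00000024079) encodes PKR, a kinase that halts translation on binding double-stranded RNA. Mandible libraries held 44.3 and 45.1 CPM in LSD1WT and 41.3 and 54.8 CPM in LSD1cKO, which overlapped. Femur libraries held 56.0 and 97.4 against 121 and 113 CPM with ligature and 60.1 and 97.2 against 104 and 92.4 CPM without. Only the ligated femur separated the genotypes, and the log2 fold change was 0.34 (SE 0.17, adjusted p = 0.368).

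Adar (ENSMUSG00000027951) encodes ADAR1, which edits adenosine in double-stranded RNA and so keeps a cell's own RNA from being sensed. It was at 45.5 and 43.1 CPM in mandible LSD1WT and 52.4 and 73.4 CPM in mandible LSD1cKO. The femur gave 57.3 and 117 against 154 and 165 CPM with ligature, and 69.0 and 120 against 142 and 140 CPM without. Genotypes were separate in every culture, yet the log2 fold change of 0.65 (SE 0.20) had an adjusted p of 0.114. Of its exonic bases, 16.8% are shared with Chrnb2 on the opposite strand.

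Samhd1 (ENSMUSG00000027639) encodes a phosphohydrolase that breaks down deoxynucleotides and limits the DNA that can build up in the cytosol. It was the most abundant member in CPM, at 149 and 152 CPM in mandible LSD1WT and 213 and 270 CPM in mandible LSD1cKO. Femur values were 283 and 552 against 730 and 732 CPM with ligature, and 294 and 374 against 640 and 484 CPM without. The groups did not overlap in any culture. The log2 fold change was 0.75 (SE 0.17, adjusted p = 0.0384), and it stayed called in 5 of the 12 fits that left out a library, with adjusted p values up to 0.0930. It was not called with mice as a random effect in limma voom (adjusted p = 0.108). Nor was it called with replicate number as a block, a fit in which replicate 3 of mandible LSD1WT takes a term of its own.

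Cgas (ENSMUSG00000032344) encodes the DNA sensor that makes cGAMP. It was at 12.6 and 12.6 CPM in mandible LSD1WT and 21.9 and 24.3 CPM in mandible LSD1cKO. The ligated femur gave 8.47 and 11.6 against 14.1 and 17.5 CPM, and the unligated femur 9.13 and 26.0 against 11.5 and 30.4 CPM. LSD1cKO was higher without overlap in both ligated cultures, and the unligated pairs interleaved. The log2 fold change was 0.60 (SE 0.29, adjusted p = 0.351).

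Trex1 (ENSMUSG00000049734) encodes the exonuclease that removes DNA before cGAS can bind it. It had 0 counts in all 12 libraries, which allows up to 3 counts, or 0.0922 to 0.140 CPM depending on the library, for counting error alone. In the GENCODE vM21 annotation all 1147 of its exonic bases (100%) also belong to Atrip on the same strand. Atrip was counted in every library, at 10.8 to 15.4 CPM. Lack of Trex1 RNA and loss of its reads to the shared exons cannot be told apart here.

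**Figure D2:**
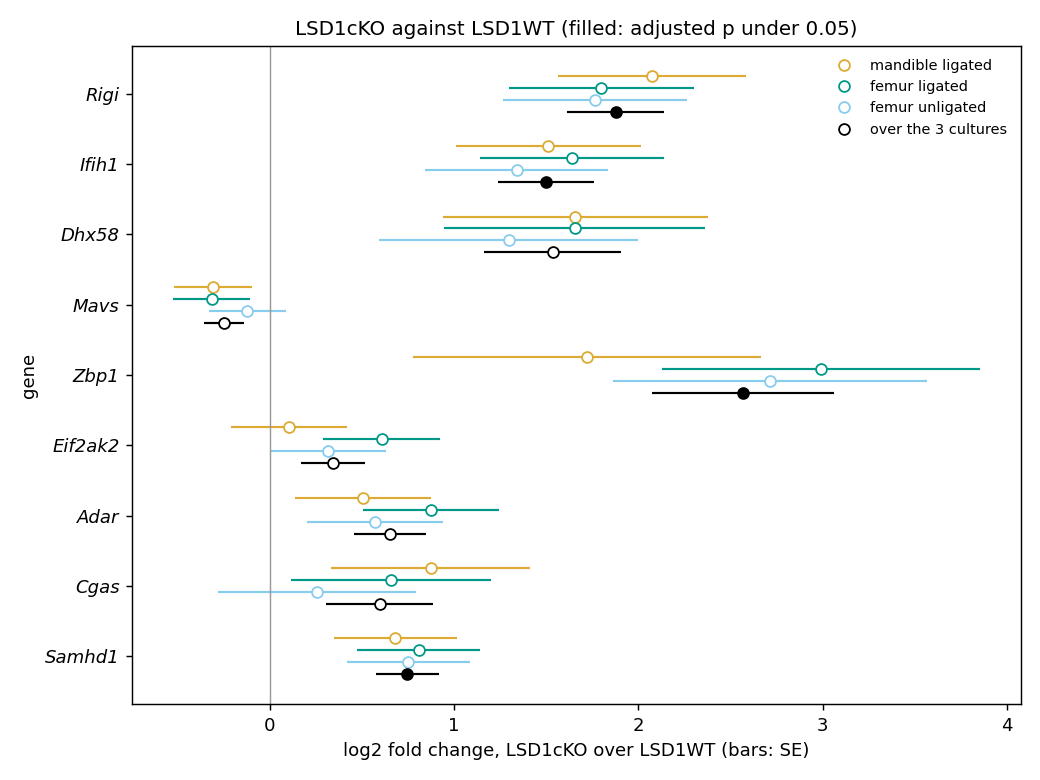
Log2 fold change of LSD1cKO over LSD1WT for the 9 tested genes in each culture and over the 3 cultures (black), with SE bars and filled points for adjusted p values under 0.05. Filled points are those of Rigi, Ifih1, Zbp1 and Samhd1 over the 3 cultures, and Mavs lies left of 0 throughout.

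Within single cultures, with 2 libraries a genotype, the direction was mostly the same. No member passed the threshold by edgeR, whose fit shares 1 estimate of the spread over all libraries. In the mandible, both LSD1cKO libraries lay above both LSD1WT libraries for 7 of 9 members, where 34.1% of all genes did so. In the ligated femur this held for 8 members (14.8% of genes), and in the unligated femur for 6 (9.82%). Rigi, Ifih1, Dhx58, Zbp1, Adar and Samhd1 had this order in all 3 cultures, as did 5.17% of genes. By edgeR, 0 members were called in the mandible (0% of genes), the femur with ligature (0.00648%, which is Kdm1a alone) and the femur without (0%). At an unadjusted p under 0.05, 3 members were higher in the mandible (Rigi, Ifih1 and Dhx58, against 3.81% of genes), 6 in the ligated femur (3.91%) and 3 in its unligated counterpart (Rigi, Ifih1 and Zbp1, against 3.61%). DESeq2 called Rigi in the mandible, where it called 0.983% of genes, Rigi and Zbp1 in the ligated femur (1.27%), and no member in the unligated femur, while limma voom called none in any of the cultures. Fitted on its 4 libraries alone, the mandible gave 7 called members and 37.7% of all genes. The 7 were all members but Zbp1 and Eif2ak2, and Mavs among them was lower in LSD1cKO. The spread of this fit comes from 2 pairs, 1 of them the closely alike LSD1WT pair. Over the 3 cultures, DESeq2 called 6 members and 6.69% of genes, adding Dhx58 (adjusted p = 0.00157) and Adar (0.0373).

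The size of the LSD1cKO effect was not shown to differ between the cultures. Rigi had log2 fold changes of 2.07 (SE 0.51) in the mandible, 1.80 (SE 0.50) in the ligated femur and 1.76 (SE 0.50) without ligature. Zbp1 had 1.72 (SE 0.95), 2.99 (SE 0.86) and 2.71 (SE 0.85) in the same order. The difference between mandible and ligated femur was -1.27 (SE 1.26) for Zbp1 and between -0.50 and 0.27 for the other members. Neither the difference between sites nor that between ligated and unligated femur was called for any member by edgeR, DESeq2 or limma voom (edgeR called 0% of genes in each). At an unadjusted p under 0.05, 0 members passed in either, against 0.966% and 0.344% of genes. These standard errors leave room for sizeable differences.

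**Figure D3:**
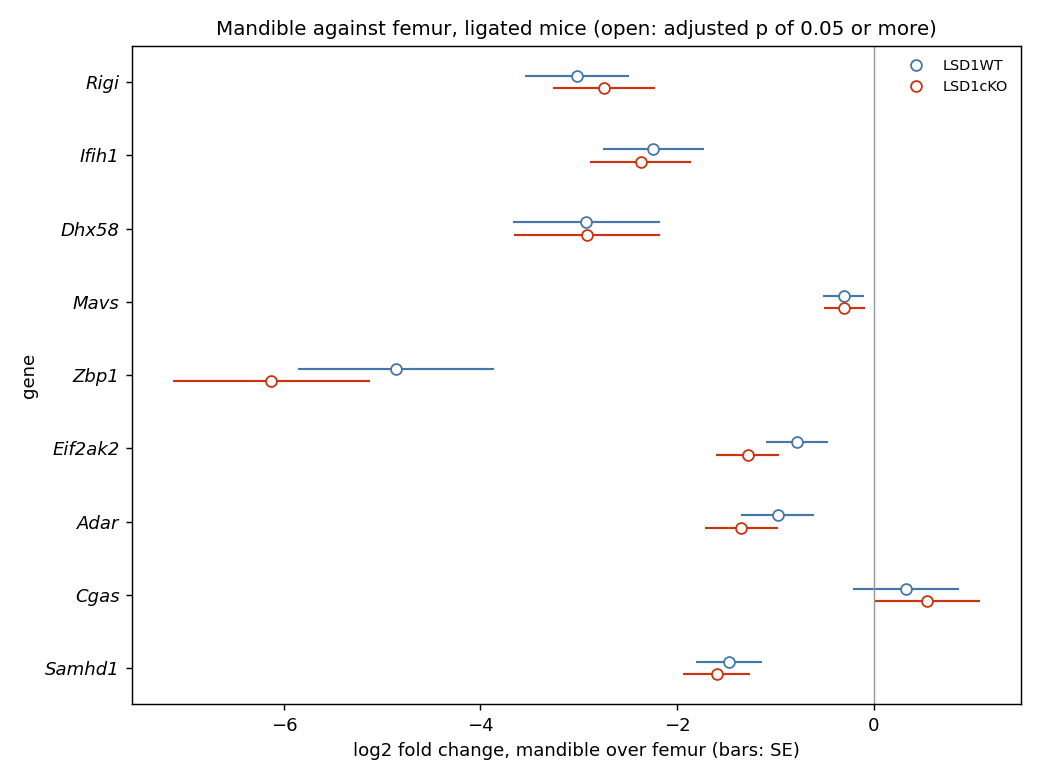
Log2 fold change of mandible over femur in ligated LSD1WT (blue) and LSD1cKO (red) mice, with SE bars; open points have adjusted p values of 0.05 or more. All members but Cgas lie left of 0 in both genotypes, with Zbp1 farthest out at -4.86 and -6.13.

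Between skeletal sites the fitted differences were larger in size than between genotypes over the 3 cultures for every member but Cgas. This comparison was not tested. In LSD1WT the order depended on single libraries. With 1 library left out, the site value shrank to as little as -0.37 for Adar, -0.33 for Eif2ak2 and -0.22 for Mavs. For Ifih1 and Dhx58 it shrank to -1.25 and -1.41. The genotype values over the 3 cultures were 0.65, 0.34, -0.25, 1.50 and 1.53 in the same order. Replicate 3 of mandible LSD1WT is femur by its library name. In ligated mice, both mandible libraries lay below both femur libraries for 8 of 9 members in LSD1WT (31.5% of genes) and for 8 of 9 in LSD1cKO (35% of genes), with Cgas in the opposite order in both. In LSD1WT, the log2 fold change of mandible over femur was -4.86 (SE 1.00) for Zbp1, -3.02 (SE 0.53) for Rigi, -2.92 (SE 0.75) for Dhx58 and -2.24 (SE 0.51) for Ifih1. In LSD1cKO it was -6.13 (SE 1.01), -2.74 (SE 0.52), -2.92 (SE 0.74) and -2.37 (SE 0.51). Samhd1 had -1.47 (SE 0.34) and -1.60 (SE 0.34), and Cgas had 0.33 (SE 0.54) and 0.55 (SE 0.54). After adjustment edgeR called 0 members and 0% of genes in either genotype, with a smallest member adjusted p of 0.0976, for Zbp1 in LSD1cKO. At an unadjusted p under 0.05, 7 members were lower in LSD1WT and 7 in LSD1cKO, all but Mavs and Cgas, against 14.7% and 6.81% of genes. DESeq2 called 5 members in LSD1WT (8.01% of genes) and 7 in LSD1cKO (5.15% of genes), and limma voom called none. The 4 LSD1cKO libraries are pairs from the same 2 mice, and with the mouse as a replicate block 8 members were called, all but Mavs, together with 38.2% of genes. The interferon response genes moved with the site too, with summed levels of 19.7 to 125 CPM in the mandible libraries and 114 to 2113 CPM in the femur libraries.

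No member was called between ligated and unligated femur. Log2 fold changes of ligated over unligated femur ran from -0.81 to 0.55 in LSD1WT and from -0.41 to 0.83 in LSD1cKO. By edgeR 0 members were called in either genotype (0% of genes), 0 at an unadjusted p under 0.05 (0.765% and 0.959% of genes), and DESeq2 and limma voom called 0 as well. Both ligated libraries lay above both unligated libraries for 1 member in LSD1WT (Mavs, against 5.25% of genes) and for 7 in LSD1cKO, all but Mavs and Cgas (14% of genes). The values largest in size were -0.81 (SE 0.54) for Cgas in LSD1WT and 0.83 (SE 0.80) for Zbp1 in LSD1cKO.

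The second femur LSD1WT library, with its low osteoclast markers, was higher than the first for all 9 members in both cultures. Mavs was nearly equal, at ratios of 1.03 with ligature and 1.04 without. The ligated and unligated pairs differed widely over all genes, with a median squared difference 153 and 130 times that of sampling alone. The share of all genes in this order was not computed, so the count cannot be read as particular to the members. The ratio of the second to the first ran from 1.03 to 7.41 with ligature and from 1.03 to 2.85 without. Zbp1 had the highest ratio in the ligated culture, at 7.41, and the lowest in the unligated one, at 1.03. The mean of the LSD1cKO pair in the ligated femur was 6.67 times the first LSD1WT library and 2.35 times the second for Rigi, and 33.3 and 4.50 times for Zbp1. For Eif2ak2 in the unligated femur, it was 1.63 and 1.01 times. Summed interferon response genes were 114 and 759 CPM in the ligated pair and 232 and 332 CPM in the unligated pair. The part of culture composition in these differences was not tested.

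Levels can be ordered between genes only per length, for which CPM were divided by the exon length in kb. In mandible LSD1WT, Mavs (16.7 CPM per kb) and Samhd1 (16.5) came first, with overlapping libraries, followed by Eif2ak2, Adar and Cgas, each separate from the next, and then by Rigi, Dhx58 and Ifih1, which overlapped, with Zbp1 last at 0.118. In ligated femur LSD1cKO, Samhd1 (79.9 CPM per kb) and Rigi (37.9) led. Dhx58 (29.6) and Zbp1 (27.8) overlapped behind them, and Mavs at 16.6 came after all but Cgas (3.83). Zbp1 thus stood in place 9 of 9 in the one condition and in place 4 in the other, while the level of Mavs per kb stayed between 13.5 and 20.6 across the 6 conditions.

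Among the partner genes of the sensors, Irf7 and Ddx60 were called over the 3 cultures. Of 12 genes of STING and MAVS signalling, Irf7, the interferon-induced transcription factor that amplifies interferon production, rose (log2 fold change 2.71, SE 0.42, adjusted p = 0.00662), and no other was called, where 3% of all genes were called higher. At an unadjusted p under 0.05, 5 of the 12 passed, 3 higher and 2 lower, against 16.1% of all genes in either direction. Irf7 was at 1.80 and 1.91 CPM in mandible LSD1WT, 4.53 and 16.6 CPM in mandible LSD1cKO, and 254 and 390 CPM in ligated femur LSD1cKO. Within the ligated femur its genotype log2 fold change was 2.89 (SE 0.80). Tbk1, the kinase that activates IRF3 and IRF7, had -0.30 (SE 0.09, adjusted p = 0.128). The other 3, named here after their values were seen, were Traf2, an adaptor (0.51, SE 0.17, adjusted p = 0.144), Irf3, a transcription factor that TBK1 activates (-0.22, SE 0.09, adjusted p = 0.256), and Sting1, the receptor of cGAMP (0.81, SE 0.34, adjusted p = 0.271). Sting1 was at 11.3 and 11.9 CPM in mandible LSD1WT and at 29.6 and 38.9 CPM in mandible LSD1cKO, without overlap. The genotypes overlapped for Sting1 in both femur cultures, at log2 fold changes of 0.44 (SE 0.57) with ligature and 0.45 (SE 0.57) without. The list's median was 0.19.

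Of 12 cofactors of the RIG-I-like receptors, 11 were tested, and Ddx60, a helicase linked to RIG-I signalling, rose by 1.81 (SE 0.42, adjusted p = 0.0405) while 10 were not called, again beside 3% of all genes called higher. It was at 1.10 and 0.917 CPM in mandible LSD1WT and 2.64 and 6.24 CPM in mandible LSD1cKO, with 72.3 and 79.4 CPM in ligated femur LSD1cKO. Within the ligated femur its genotype log2 fold change was 1.73 (SE 0.77). Between sites in LSD1WT, mandible over femur, it was -4.50 (SE 0.89). Pcbp2, which promotes the turnover of MAVS, had -0.30 (SE 0.13, adjusted p = 0.284). Among 12 genes that clear nucleic acids or break down cGAMP, none was called. Dnase1l3, a secreted nuclease, had 1.89 (SE 0.47, adjusted p = 0.0560) on at most 45 counts in any library, and Rnaseh2c, a subunit of the enzyme that removes RNA from DNA, had -0.32 (SE 0.11, adjusted p = 0.164). The medians of these lists were -0.05 and -0.06.

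Among 6 partners of ZBP1 in cell death none was called, with Ripk3, the kinase of necroptosis, at 0.69 (SE 0.21, adjusted p = 0.125) and Mlkl, which it phosphorylates, at 0.68 (SE 0.22, adjusted p = 0.151). The other partners, named here after their values were seen, all had negative values. They were Fadd (-0.33, SE 0.11, adjusted p = 0.166), Ripk1 (-0.30, SE 0.14), Casp6 (-0.19, SE 0.15) and Casp8 (-0.02, SE 0.08). Fadd was lower in LSD1cKO without overlap over the 12 libraries. The 10 other genes of PKR and eIF2 alpha signalling lay between -0.14 and 0.15, and none passed an unadjusted 0.05, which 16.1% of all genes did. Prkra, the activator of PKR, had -0.14 (SE 0.12) and Eif2ak1, the heme-regulated kinase, had -0.12 (SE 0.12). Adarb1, which encodes the editing enzyme ADAR2, had -0.64 (SE 0.31, adjusted p = 0.343), and Adarb2 had 0 counts. Interferon genes themselves were at or near 0, with 0 counts of Ifna1, Ifna2 and Ifna4 in all libraries and 0 to 6 counts of Ifnb1. The receptor chains Ifnar1 (0.18, SE 0.20) and Ifnar2 (-0.37, SE 0.38) were not called. Of 12 interferon response genes, 12 had positive values, as did 40.9% of all genes, and 8 were called higher, against 3% of all genes. Their median was 2.18, and Isg15 (2.65, SE 0.41), Usp18 (2.74, SE 0.42) and Ifit1 (2.59, SE 0.45) were named as examples after their values were seen.

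**Figure D4:**
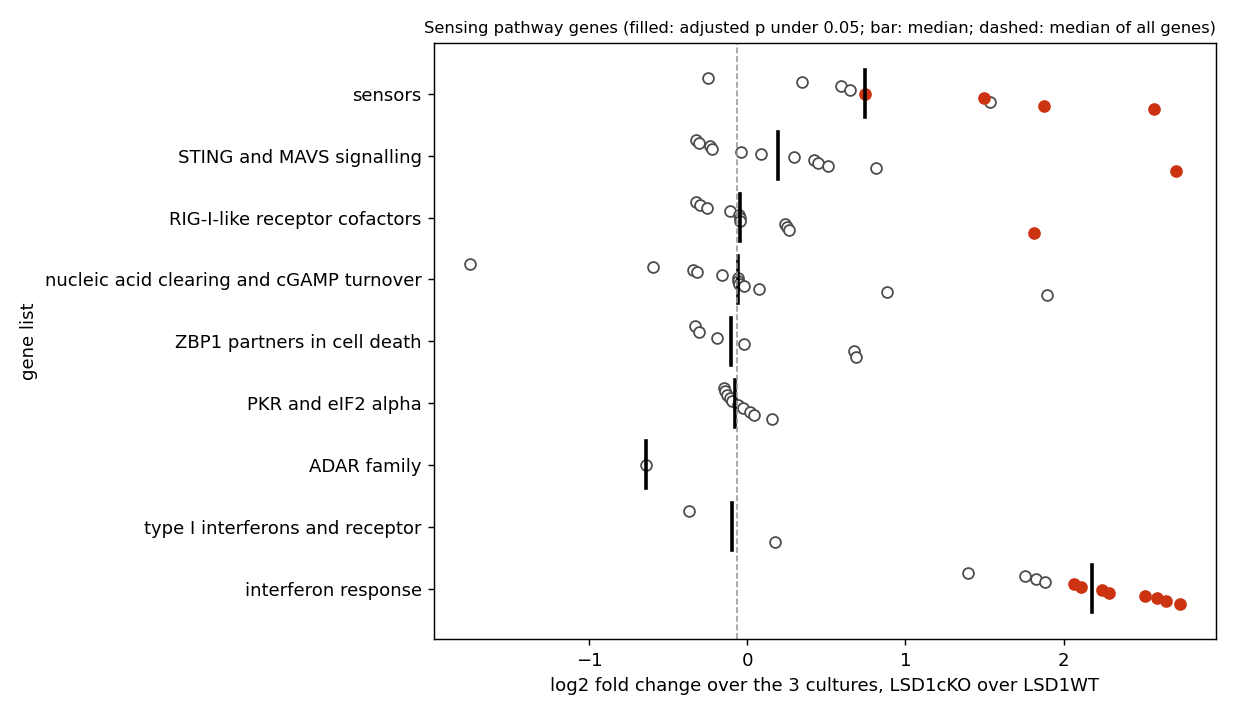
Log2 fold change of LSD1cKO over LSD1WT over the 3 cultures for each tested gene of the sensors and of the lists of partner genes, with filled points for adjusted p values under 0.05, bars for list medians and a dashed line for the median of all genes. Outside the sensors and the interferon response list, the filled points are Irf7 at 2.71 and Ddx60 at 1.81.

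Across the 12 libraries, 7 members varied together. For Rigi, Ifih1, Dhx58, Zbp1, Eif2ak2, Adar and Samhd1, Pearson's r of log2 CPM between pairs ran from 0.917 to 0.990 over 21 pairs, all from libraries that share site and genotype effects. Mavs had r of 0.132 to 0.329 and Cgas r of 0.0916 to 0.290 with these 7, and Mavs and Cgas had -0.695 with each other. The genes outside the set most like the mean of the members were Ifi207 (r = 0.993), Gvin-ps7 (0.991), Ifi204 (0.990), Trim30a, Irgm2, Gvin2, Slfn8 and Igtp (the last at 0.989). Ifi207 and Ifi204 belong to the interferon-inducible p200 family, and Irgm2 and Igtp are interferon-inducible GTPases. For single members the nearest genes were Phf11b for Rigi (0.994), Irgm1 for Ifih1 (0.993), Gvin2 for Dhx58 (0.993), Parp10 for Zbp1 (0.996), Igtp for Adar (0.985) and Dtx3l for Samhd1 (0.991). Mavs was most like Tor4a (0.961) and Cgas most like Rexo2 (0.950). Eif2ak2 was most like Gm6548 (0.988), a predicted gene of uncertain read assignment.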

How the data were processed

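The deposited values are raw counts of reads per Ensembl mouse gene, which the authors made from polyA RNA without normalization; the submitters' processing notes name HISAT2 2.1.0, featureCounts, FastQC and edgeR and the build GRCm39. Libraries were grouped by their titles. In R 4.3.3 with edgeR 4.0.16, genes were kept with filterByExpr, scaled by TMM and fitted on all 12 libraries with the quasi-likelihood test, either with culture and genotype as terms (over the 3 cultures) or with 1 coefficient for each of the 6 conditions, and p values were adjusted over all genes tested by the Benjamini-Hochberg method. Log2 CPM used a prior count of 2. Both models were run on simulated counts without culture differences, shared mice or outlying libraries. That check does not cover those features of these data. The members and gene lists were chosen with earlier results of these data known. Genes are named by a rule: all members, the 2 smallest p values and every called gene of each pathway list, and the genes most like the members by Pearson's r; other genes given with a genotype fold change are marked as named after their values were seen. Alternatives were DESeq2 1.42.0, limma 3.58.1 voom, other scalings and filters, libraries left out, and a replicate or mouse block. Replicate numbers were checked for pairing. Deviations of same-numbered libraries correlated at 0.78 between ligated and unligated femur LSD1WT, from different mice by the labels. Other correlations ran from -0.20 to 0.28. The number was kept out of the main models, which treat these libraries as independent, and was tried as a block. Only the labels' shared mice pair libraries, and for the 2 LSD1cKO mice the correlation between sites was 0.026. Exon lengths and overlaps came from GENCODE vM21 and promoters from RefSeq, both on GRCm38, by name only, since the counts carry no coordinates.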

Additional observations from a re-analysis of the deposited data

How the results depend on the processing

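Over the 3 cultures, 4 members were called and 2 to 6 when 1 library was left out (2 without ligated mandible LSD1cKO replicate 2, 6 without unligated femur LSD1WT replicate 2). With the replicate block 4 were called, with Dhx58 in (adjusted p = 0.0228) and Samhd1 out (0.0797), and limma voom, treating mice as random, called 3, with Samhd1 out (0.108). Counts moved to 8 without both second femur LSD1WT libraries, 1 with mandible LSD1WT replicate 3 as femur, 0 in the 8 femur libraries alone and 0 in the 8 ligated libraries alone; the last 2 were added after seeing the data and use fewer samples. Against 0 called members, DESeq2 called 1 in the mandible, 2 in the ligated femur, 5 for mandible against femur in LSD1WT and 7 in LSD1cKO. No filter beyond 1 count gave 1, 1, 5 and 5 in the same order. Leaving out both second femur LSD1WT libraries also raised the counts in each culture and for the site in LSD1cKO. Each femur LSD1WT group is then 1 library, assumed to vary like the other groups, so these counts are not given. The compared libraries alone gave 7 in the mandible, with Mavs lower in LSD1cKO, and 9 for the site in LSD1cKO, where the mouse as replicate block gave 8. With 1 library left out, the site counts ran from 0 to 7 in LSD1WT (7 without ligated femur LSD1WT replicate 1, where that group is the single library with 168 CPM of osteoclast markers, assumed to vary like the other groups) and from 0 to 7 in LSD1cKO (7 without ligated femur LSD1WT replicate 1 or 2). The cause was not tested. Shares of all genes called are not given for the fits without a filter or with 1 library left out. Nor are they given with mandible LSD1WT replicate 3 as femur, or for the site on the compared libraries alone. Where given, they reached 37.7% in the mandible alone and 38.2% with the mouse as replicate block. These member counts therefore cannot be read as particular to the members. The replicate block changed no other count of called members. Mandible LSD1WT replicate 3 is the only library with its number, so that block leaves 1 LSD1WT library for the mandible. Values that changed sign, none of them called, were Eif2ak2 in the mandible (-0.061 with the replicate block, and -0.10 to 0.31 with 1 library left out), Cgas in the unligated femur (-0.55 to 1.21, and -0.24 without LSD1WT replicate 1) and Mavs there (-0.43 to 0.20). Depth limits Zbp1 most, with 7 to 69 counts in the mandible.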
